A study of Mus musculus with 9 samples.

Results

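The genes described here encode the extracellular matrix of the gut wall: the collagens (symbols of the form Col, number, a, number), the laminin α, β and γ chains (Lama, Lamb and Lamc with a number), and Fn1, Sparc, Dcn, Lum, Vim, Pdgfra and Nid1. They were chosen by symbol alone, and the rule found 62 of the 24930 gene symbols in the table: 44 collagens, 11 laminin chains and the other 7. Poly(A) RNA of mouse crypt epithelium was sequenced 8, 9 and 10 days after induction of 1 mutant allele of Ctnnb1, the gene of β-catenin, whose mutant form keeps WNT signalling active. Of the 9 libraries, 3 were controls and 6 were mutants in 2 sets of 3, and every group had 1 library per day. The control libraries are labelled only as control. The titles call set A β-catenin heterozygous, and call set B heterozygous for Cdx2, an intestinal transcription factor, as well. The library names reverse this: CDX2HET and EXON3 stand in those of set A, and EXON3 alone in those of set B. The sets therefore have neutral names here, and no difference between them is read as an effect of Cdx2. The promoter or Cre that induced the allele, the strain and age of the mice, and whether each library is 1 mouse are not given in the sources read. The p-values cover the spread among these libraries, which may be technical.

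Values are FPKM, fragments scaled for transcript length and depth, so levels may be compared between genes. Steps between low values gave whole fragments for 28 of the 62 members, to within 0.05 of a fragment, and put the relative depth of the libraries at 0.943 to 1.07. Only values of up to 30 fragments were checked in this way, and larger counts, such as some of Col3a1, are rounded from the same step. The labelled tissue was checked against its markers: 10 epithelial genes such as Epcam, Krt8 and Krt19 summed to 6060 to 6929 FPKM in the controls and 6113 to 7102 in the mutants. The day 9 library of set B stood apart from the other 8, since Xist was at 0.1002 FPKM (27.04 to 39.4 in the rest) and the 4 Y-linked genes read summed to 41.7 FPKM (no more than 0.0470 in the rest). Such values mark RNA of a male, and those of the other 8 libraries RNA of females. The day 9 library of set B also held the highest value of 22 of the 59 members that were above 0 anywhere, while the share of all genes that peaked in it was not computed. Results that rest on this library are given with and without it.

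Fibrillar collagens are made mainly by fibroblasts, secreted as procollagen and assembled into the banded fibrils of the lamina propria and submucosa. Laminins are trimers of an α, a β and a γ chain that form, with type IV collagen and nidogens, the basement membrane on which the epithelium sits. Epithelial cells make several laminin chains themselves. In libraries of crypt epithelium, fibrillar collagen RNA is therefore used here as a gauge of stromal RNA, whereas laminin RNA can come from the epithelium. The cells that the RNA came from were not tested.

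The 4 sequences printed first are the 250 bases before the annotated start of 3 matrix genes that were high in the same libraries and of 1 epithelial laminin that was abundant in all libraries. They come from RefSeq on the build GRCm38.p6, while the processing notes name mm9. RefSeq promoters were matched by symbol for 44 of the 62 members, in 48 windows. The windows are Col3a1 at chr1:45311288-45311537 and Col1a2 at chr6:4505368-4505617, both on the plus strand, Col6a1 at chr10:76726045-76726294 on the minus strand, and the first of the 2 starts of Lamb3 at chr1:193301744-193301993 on the plus strand. Capitals mark matches to the motifs searched on both strands.
Col3a1: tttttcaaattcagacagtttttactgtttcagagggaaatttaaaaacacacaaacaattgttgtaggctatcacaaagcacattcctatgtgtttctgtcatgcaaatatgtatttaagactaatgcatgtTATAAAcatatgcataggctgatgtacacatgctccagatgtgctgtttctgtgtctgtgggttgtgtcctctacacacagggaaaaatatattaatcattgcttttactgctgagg
Col1a2: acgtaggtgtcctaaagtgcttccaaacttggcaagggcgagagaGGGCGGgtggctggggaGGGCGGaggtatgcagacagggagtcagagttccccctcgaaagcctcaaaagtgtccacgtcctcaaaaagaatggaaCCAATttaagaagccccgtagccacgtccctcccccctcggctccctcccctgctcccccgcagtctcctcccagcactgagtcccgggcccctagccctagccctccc
Col6a1: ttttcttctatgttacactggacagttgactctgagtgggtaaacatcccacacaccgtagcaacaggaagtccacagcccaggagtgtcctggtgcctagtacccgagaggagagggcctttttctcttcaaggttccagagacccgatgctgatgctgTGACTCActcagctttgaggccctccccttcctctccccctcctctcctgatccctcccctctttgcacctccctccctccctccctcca
Lamb3: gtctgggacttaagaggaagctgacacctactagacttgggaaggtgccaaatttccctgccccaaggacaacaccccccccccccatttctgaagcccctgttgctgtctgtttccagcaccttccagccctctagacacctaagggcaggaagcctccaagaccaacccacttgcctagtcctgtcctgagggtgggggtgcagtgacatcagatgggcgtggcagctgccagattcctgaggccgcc

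The motifs were the CCAAT box (its name gives its letters), the TATA box (letters TATAAA), the AP-1 site (letters TGACTCA) and the GC box (letters GGGCGG). In the Col3a1 window a TATA box began 117 bases before the start. The Col1a2 window held a CCAAT box, 109 bases before the start, and 2 GC boxes. The Col6a1 window held an AP-1 site, 90 bases before the start, and the Lamb3 window held none of the 4 motifs. No 2 matches overlapped in these windows. Over the members' 48 windows, 16 held a CCAAT box, 6 a TATA box, 1 an AP-1 site and 25 a GC box, while the shares over 32851 promoters of the same length were 33.8%, 12.4%, 4.46% and 32.7%. These matches describe the letters of the windows and say nothing of a factor's binding.

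Collagen RNA was scarce in the crypt libraries: 39 of the 44 collagens stayed under 1 FPKM in all 9 libraries, and none reached the level needed for a test with pseudocount 1 (1 FPKM in 3 libraries). Over all 62 members, 3 were at 0 everywhere (Col2a1, Col11a1 and Lama1), 25 others peaked below 0.1 FPKM, 18 peaked between 0.1 and 1, and 16 reached 1. Within the 6 mutant libraries Col1a1, Col1a2 and Col3a1, the main fibrillar chains, were high on days 8 and 9 and low on day 10 in both sets. Of the 59 members seen at all, 44 had their highest value in a mutant library of day 8 or day 9. The share over all genes was not computed, and several of these members rest on a few fragments. The count therefore only describes the members.

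In what follows, each group's values are in the order of days 8, 9 and 10. Col3a1, the chain of type III collagen that marks reticular fibres, stood at 0.0292, 0.0362 and 0.00934 FPKM in the controls, 0.842, 1.58 and 0.0825 across set A and 0.213, 1.88 and 0.103 across set B. These values correspond to 3, 4 and 1 fragments in the controls, 88, 161 and 8 across set A and 22, 204 and 10 across set B. All 6 mutant libraries were above all 3 controls, but the day 10 mutants lay far nearer to the controls than to the day 9 mutants. The mean was 0.782 ± 0.788 FPKM (SD, n = 6) in the mutants and 0.0249 ± 0.0140 (SD, n = 3) in the controls, a ratio of 31.4. A two-sided exact permutation test over the 84 splits of 3 and 6 libraries gave p = 0.0952, where 0.0119 is the smallest it can give. Without the day 9 library of set B the mutant mean was 0.563 ± 0.646 FPKM (SD, n = 5), the ratio 22.6 and the exact permutation p 0.125. In bulk RNA, fewer cells of a type and less RNA per cell cannot be told apart.

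Col1a1 and Col1a2 encode the 2 chains of type I collagen, the main fibril of connective tissue. Col1a1 was at 0.0272, 0.0423 and 0.00872 FPKM in the controls, 0.661, 1.17 and 0.0962 across set A and 0.254, 1.07 and 0.0384 across set B. Col1a2 was at 0, 0.0387 and 0 FPKM in the controls, 0.685, 1.33 and 0.0771 across set A and 0.238, 1.49 and 0.033 across set B, and is listed at 0 in 2 controls. The day 9 libraries of both sets were the highest for both chains and the day 10 mutants the lowest of the mutants. For Col1a1, the day 10 mutant of set B fell below the day 9 control, so the groups overlapped. In the mutants Col1a1 stood at 0.785, 0.742 and 1.17 times Col3a1 across set A and at 1.19, 0.572 and 0.373 times across set B. The ratio thus varied far less than Col3a1 itself, which ranged from 0.0825 to 1.88 FPKM, although the day 10 ratios rest on 4 to 10 fragments for each gene.

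Type V collagen co-assembles with type I and sets fibril width. Its chains gave few fragments: Col5a1 had 1, 2 and 0 in the controls, 9, 9 and 4 across set A and 5, 8 and 2 across set B. All mutant libraries exceeded all controls for Col5a1 on the FPKM scale. Col5a2 gave 0, 1 and 3 fragments in the controls, 12, 17 and 0 across set A and 1, 14 and 2 across set B. Col5a3 gave none in the controls, 5, 7 and 1 across set A and 1, 16 and 0 across set B. Both chains were thus high in the day 9 mutants and at or near 0 in the day 10 mutants.

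In the other fibrillar genes the drop on day 10 was smaller. Col11a2, a chain of type XI collagen best known from cartilage, was at 0.222, 0.368 and 0.229 FPKM in the controls, 0.586, 0.453 and 0.405 across set A and 0.605, 0.457 and 0.287 across set B. The 2 mutants of day 10 were again the lowest of the mutants, and only the day 10 library of set B fell inside the control range. Col27a1 had 5, 8 and 1 fragments in the controls, 17, 10 and 5 across set A and 9, 33 and 7 across set B, with the 2 day 10 mutants the lowest of the mutants on the FPKM scale. Col24a1 had at most 2 fragments in any library, and Col2a1 and Col11a1, both cartilage collagens, had none.

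**Figure D1:**
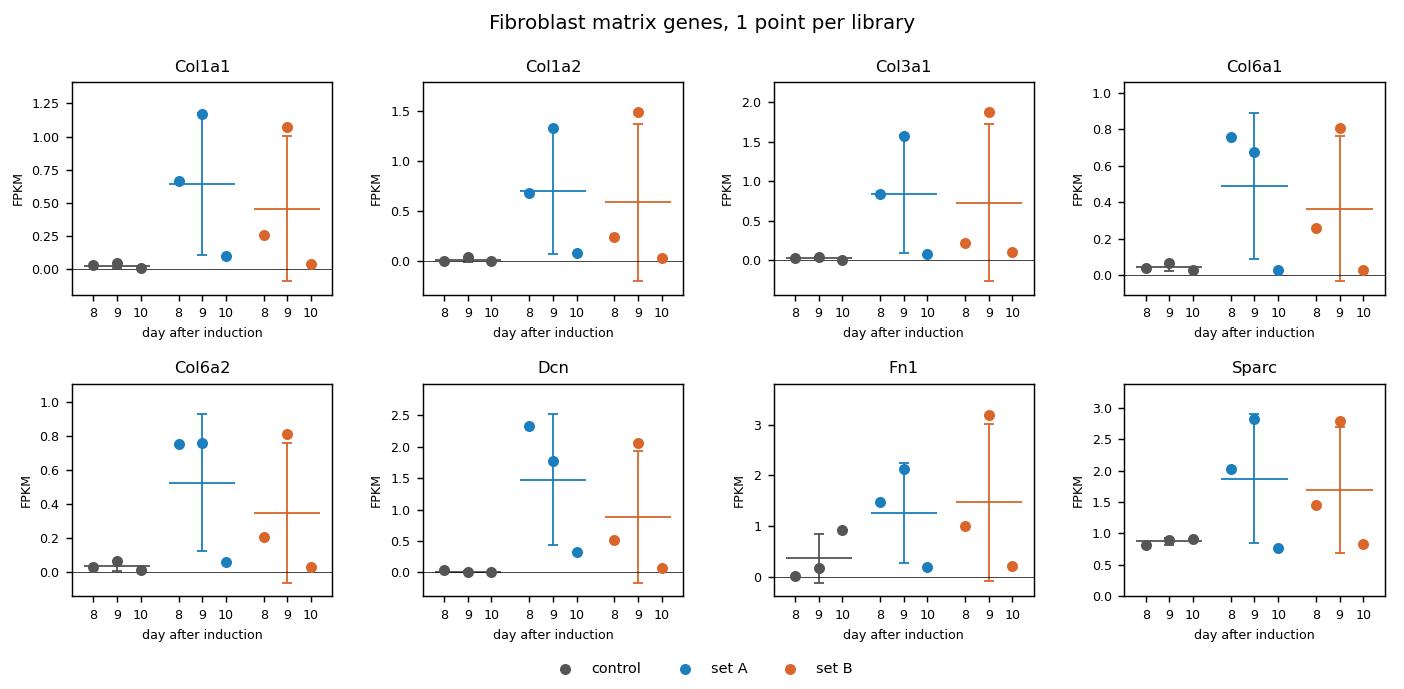
FPKM of 8 fibroblast matrix genes in each library (y axis, linear) by group and day after induction (x axis). Points are libraries, horizontal lines are group means and vertical bars are 1 SD (n = 3). The day 8 and day 9 mutant libraries sit above the day 10 mutants in each of the 8 panels, with Col3a1 of set B at 1.88 on day 9 and 0.103 on day 10.

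Collagen VI, a beaded filament around cells of connective tissue, is built from α1, α2 and α3 or related chains. Col6a1 was at 0.0413, 0.0641 and 0.0264 FPKM in the controls, 0.758, 0.678 and 0.0292 across set A and 0.261, 0.807 and 0.0291 across set B. Its neighbour Col6a2 was at 0.0328, 0.0689 and 0.0142 FPKM in the controls, 0.755, 0.763 and 0.0626 across set A and 0.206, 0.811 and 0.0312 across set B. Both were high in the mutants of days 8 and 9, lay within or near the control range on day 10, and kept a ratio of Col6a1 to Col6a2 of 0.466 to 1.26 in the mutants. Col6a3 gave 0, 1 and 0 fragments in the controls, 7, 8 and 0 across set A and 1, 8 and 1 across set B. Col6a5, a chain related to α3, was at 0.0229, 0.00534 and 0.022 FPKM in the controls, 0.0282, 0.0809 and 0.0122 across set A and 0.0172, 0.114 and 0.0121 across set B, highest in the 2 day 9 mutants. Col6a4 and Col6a6 stayed below 0.05 FPKM in all libraries.

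Dcn encodes decorin, a small proteoglycan that binds collagen fibrils. It was at 0.0319, 0 and 0 FPKM in the controls, 2.34, 1.77 and 0.324 across set A and 0.519, 2.06 and 0.0676 across set B, and is listed at 0 in 2 controls. All 6 mutants exceeded all 3 controls, with both day 10 mutants below the 4 others. At the 1 FPKM filter its log2 fold change, mutants against controls on the log2(FPKM + 1) scale, was 0.97 ± 0.38 (SE), with limma's adjusted p = 0.194.

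Fn1 encodes fibronectin, which links collagen to cell-surface integrins. It stood at 0.0143, 0.159 and 0.917 FPKM in the controls, 1.47, 2.12 and 0.18 across set A and 0.991, 3.2 and 0.201 across set B. The control of day 10 was above both day 10 mutants and close to the day 8 mutant of set B, so the groups overlapped. The log2 fold change was 0.69 ± 0.45 (SE; limma, adjusted p = 0.422). Sparc encodes osteonectin, a collagen-binding matricellular protein, and was at 0.811, 0.897 and 0.904 FPKM in the controls, 2.02, 2.81 and 0.77 across set A and 1.45, 2.79 and 0.836 across set B. The 3 controls lay within a narrow range, the 4 mutants of days 8 and 9 lay above it, and the 2 mutants of day 10 did not. The log2 fold change was 0.50 ± 0.28 (SE; limma, adjusted p = 0.337).

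Lum and Pdgfra are closer to fibroblast markers than to general matrix genes: lumican is a fibril-associated proteoglycan, and Pdgfra is the PDGF receptor of mesenchymal cells. Lum was at 0 FPKM in the controls, 0.0547, 0 and 0 across set A and 0.0277, 0.0526 and 0 across set B, or 2, 0 and 0 fragments across set A and 1, 2 and 0 across set B. Pdgfra was at 0.00814, 0 and 0 FPKM in the controls, 0.0351, 0.082 and 0.0173 across set A and 0.0746, 0.087 and 0 across set B. Both therefore stayed below 0.1 FPKM in every library.

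Vim and Nid1 behaved otherwise. Vim encodes vimentin, the intermediate filament of mesenchymal, endothelial and immune cells, and was at 5.7, 6.61 and 6.13 FPKM in the controls, 6.59, 5.64 and 2.4 across set A and 4.74, 11.4 and 4.08 across set B. It was the most abundant of the 7 genes outside the collagen and laminin families, and its lowest values were again those of the day 10 mutants. T cells also express Vim, and their RNA was present: the sum of 9 T cell genes was 54.8 to 95.1 FPKM in the controls, 50.4 to 78.8 in the mutants of days 8 and 9, and 20.5 and 19.6 in the mutants of day 10. Their part in the Vim values was not tested. Nid1, which encodes a nidogen that joins laminin to type IV collagen, was at 0.0624, 0.0665 and 0.05997 FPKM in the controls, 0.079, 0.0719 and 0.0189 across set A and 0.0802, 0.0759 and 0.113 across set B. It rested on 2 to 12 fragments per library and did not follow the fibrillar collagens.

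The type IV collagen network is the scaffold of basement membranes, and its α1 and α2 chains are made largely by mesenchymal and endothelial cells. Col4a1 was at 0.0405, 0.0377 and 0.0233 FPKM in the controls, 0.152, 0.0734 and 0.00859 across set A and 0.089, 0.23 and 0.0343 across set B, from 1 to 30 fragments. Col4a2 was at 0.00832, 0 and 0.016 FPKM in the controls, 0.115, 0.067 and 0.0265 across set A and 0.0249, 0.0944 and 0.0088 across set B. Both genes were highest in the day 8 mutant of set A and the day 9 mutant of set B. Col4a3 was at 0.0248, 0.0289 and 0.0595 FPKM in the controls, 0.0672, 0.0687 and 0.0395 across set A and 0.0495, 0.0586 and 0.0394 across set B. Col4a4 and Col4a6 stayed below 0.05 FPKM in all libraries, and Col4a5 reached 7 fragments at most.

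Types XV and XVIII collagen are the multiplexins, which carry sugar chains and lie beside basement membranes. Col15a1 was at 0.183, 0.18 and 0.195 FPKM in the controls, 0.07998, 0.0716 and 0.0754 across set A and 0.0406, 0.259 and 0.0107 across set B, or 18, 19 and 20 fragments in the controls, 8, 7 and 7 across set A and 4, 27 and 1 across set B. Of the 6 mutants, 5 were below all controls and the day 9 library of set B was above them. Its log2 fold change was −0.69 ± 0.38 (SE; limma, adjusted p = 0.35) on the log2(FPKM + 0.1) scale, and −0.95 ± 0.25 (SE; limma, adjusted p = 0.066) without that library. Col18a1, the precursor of endostatin, was at 0.451, 0.32 and 0.474 FPKM in the controls, 0.571, 0.443 and 0.501 across set A and 0.975, 0.721 and 1.11 across set B. Set B lay above all other libraries on every day, whereas set A overlapped the controls.

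For Col18a1 across set B against control, the log2 fold change on the log2(FPKM + 0.1) scale was 1.00 ± 0.23 (SE; limma, adjusted p = 0.112). Without the day 9 library of set B it was 1.16 ± 0.24 (SE; limma, adjusted p = 0.0472). That alternative was chosen after the data were seen, leaves 2 libraries in set B and calls 3.08% of all genes. The difference between set B and set A was 0.76 on the same scale and did not pass (limma, unadjusted p = 0.00981, adjusted p = 1.00).

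**Figure D2:**
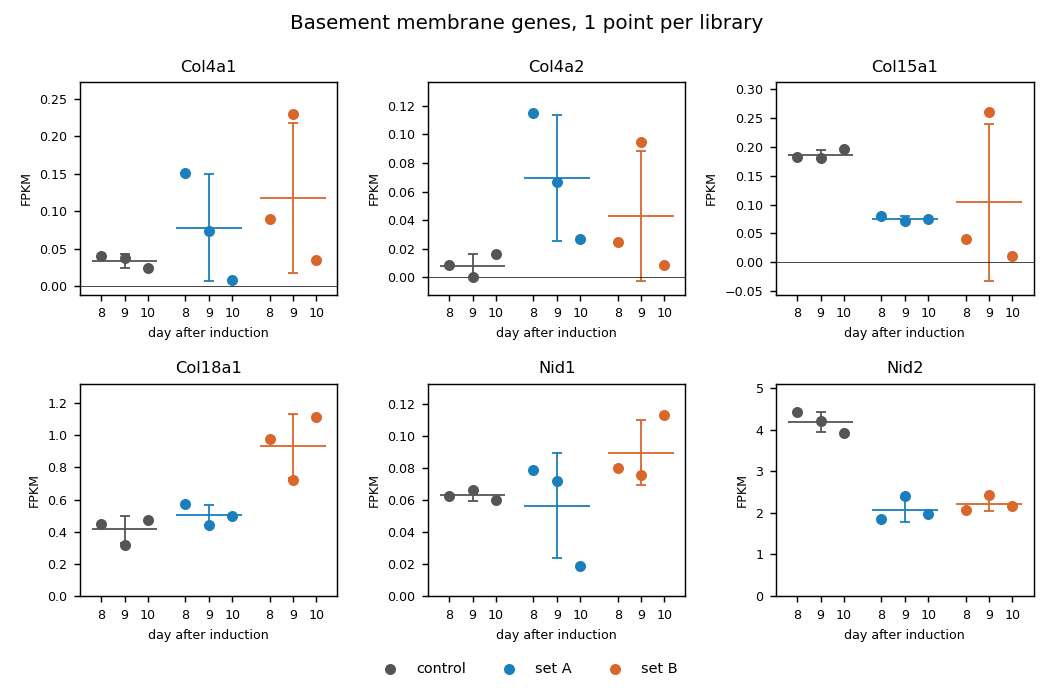
FPKM of 6 basement membrane genes in each library (y axis, linear) by group and day after induction (x axis). Points are libraries, lines are group means and bars are 1 SD (n = 3). Nid2, which is outside the chosen genes, lies at 3.92 to 4.41 in the controls and 1.84 to 2.42 in the mutants, and Col18a1 is highest in set B.

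The fibril-associated collagens sit on the surface of fibrils and differ in the tissues that make them. Col20a1 was the most abundant of them, at 0.836, 0.914 and 1.07 FPKM in the controls, 0.914, 0.526 and 0.776 across set A and 0.405, 1.25 and 0.65 across set B, with 4 of the 6 mutants below all controls and the day 9 library of set B above them. Its log2 fold change on the log2(FPKM + 0.1) scale was −0.35 ± 0.31 (SE; limma, unadjusted p = 0.284, adjusted p = 0.572), and −0.54 ± 0.23 (SE; limma, unadjusted p = 0.0484, adjusted p = 0.196) without that library. Col9a3, a chain of type IX collagen, was at 0.0984, 0.0551 and 0.189 FPKM in the controls, 0.388, 0.238 and 0.167 across set A and 0.472, 0.578 and 0.333 across set B. Only the day 10 mutant of set A fell inside its control range. Col16a1 was at 0.156, 0.106 and 0.1995 FPKM in the controls, 0.276, 0.314 and 0.374 across set A and 0.321, 0.295 and 0.209 across set B, with all mutants above all controls. Col14a1, which binds the fibrils of dense connective tissue, gave 1, 2 and 1 fragments in the controls, 14, 10 and 2 across set A and 14, 5 and 3 across set B, and on the FPKM scale all mutants again exceeded all controls. Col12a1, Col19a1 and Col22a1 stayed below 0.05 FPKM in all libraries. Col9a1 reached 0.0572 FPKM, and Col9a2 was at 0 in the controls and reached 0.143 FPKM (7 fragments) in the day 8 mutant of set B.

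Network, anchoring and transmembrane collagens were low. Col7a1, the anchoring fibril of stratified epithelia, was at 0.289, 0.199 and 0.15 FPKM in the controls, 0.222, 0.146 and 0.117 across set A and 0.133, 0.202 and 0.0979 across set B. Col8a1 was at 0.0106, 0.0297 and 0.0204 FPKM in the controls, 0.0418, 0.0107 and 0.0113 across set A and 0, 0.0602 and 0 across set B, and Col8a2 at 0.0379, 0.0353 and 0 FPKM in the controls, 0.0373, 0.0381 and 0 across set A and 0.0126, 0.0119 and 0 across set B. Neither exceeded 6 fragments, and Col10a1 did not exceed 1.

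Transmembrane collagens are cell-surface proteins rather than fibrils. Col17a1, a component of hemidesmosomes, was at 0.0399, 0.0728 and 0.0479 FPKM in the controls, 0.0385, 0.0502 and 0.0414 across set A and 0.0199, 0.0283 and 0.0316 across set B. Col23a1 was at 0.0191, 0 and 0.0275 FPKM in the controls, 0.0564, 0.0384 and 0.0202 across set A and 0, 0.0181 and 0.0404 across set B. Col25a1 was at 0.0955, 0.0136 and 0.0153 FPKM in the controls, 0, 0 and 0.00844 across set A and 0.00795, 0 and 0.00842 across set B and was the 1 member below all controls in all mutants. Col13a1 was seen in 1 library. The remaining collagens gave traces: Col26a1 was at 0 FPKM in the controls, 0.0197, 0 and 0.0211 across set A and 0 across set B, and Col28a1 at 0.0259, 0.0121 and 0.0124 FPKM in the controls, 0.0255, 0.013 and 0.0411 across set A and 0.0129, 0 and 0 across set B.

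Across the 62 members, 5 were above all 3 controls in all 6 mutants (8.06%): Col3a1, Col5a1, Col14a1, Col16a1 and Dcn. The background was 4.37% of the 19704 gene symbols above 0 in a library, or 861 of them. Only Col25a1 was below all controls in all mutants (1.61%), against a background of 5.28%. No test was made of these shares. Of the 5 genes, Dcn passed the filter of 1 FPKM in 3 libraries, and Col3a1, Dcn and Col16a1 passed the lower one.

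Several laminin chains were well above the collagens in level. The epithelial chains shown are Lama3 and Lamb3, which belong to the laminin of hemidesmosomes, and Lama5, the α chain of the mature intestinal basement membrane. Lamb3 was the most abundant chain, at 7.11, 5.72 and 5.43 FPKM in the controls, 11.04, 8.79 and 4.46 across set A and 4.996, 12.04 and 5.62 across set B. It was highest in the day 9 mutant of set B and the day 8 mutant of set A, and the groups overlapped: log2 fold change 0.24 ± 0.31 (SE; limma, adjusted p = 0.698).

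Lama3, the α chain that partners Lamb3, was low in 5 of the 6 mutants. It was at 2.08, 1.13 and 0.797 FPKM in the controls, 0.489, 0.369 and 0.279 across set A and 0.156, 1.73 and 0.299 across set B. In set A all 3 libraries were below all controls, and in set B 2 of 3 were, while the day 9 library of set B lay near the highest control. At the 1 FPKM filter the log2 fold change was −0.62 ± 0.29 (SE; limma, adjusted p = 0.264). Lama3 stood at 0.293, 0.197 and 0.147 times Lamb3 in the controls, at 0.0443, 0.0419 and 0.0626 times across set A, and at 0.0312, 0.143 and 0.0532 times across set B. Hence all 6 mutant ratios were below all 3 control ratios, that of the day 9 library of set B just below the day 10 control. In that library Lama3 itself lay within the control range, and Lamb3 had its highest value, 12.04 FPKM. How often ratios of other gene pairs separate the groups was not computed.

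On the log2(FPKM + 0.1) scale, over the 15498 genes with a mean of at least 0.1 FPKM, the log2 fold change of Lama3 was −1.37 ± 0.59 (SE; limma, adjusted p = 0.254). Without the day 9 library of set B it was −1.79 ± 0.33 and passed (SE; limma, adjusted p = 0.0273, lower in 5 of 5 mutant libraries than in all 3 controls). In set B alone it was then −2.07 ± 0.42 (SE; limma, adjusted p = 0.0442), and in set A −1.51 ± 0.37 (SE; limma, adjusted p = 0.0932). This alternative was chosen after the data were seen. It called 6.01% of 15404 genes in mutants against control, and 0.591% in set A against control, so calls were more common in it than in the fit of all 9 libraries.

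Lama5 was at 1.9, 1.67 and 1.61 FPKM in the controls, 2.06, 1.24 and 1.69 across set A and 2.07, 3.06 and 2.19 across set B, with the day 9 mutant of set B the highest and that of set A the lowest. Its log2 fold change was 0.14 ± 0.13 (SE; limma, adjusted p = 0.581). The chains shared by epithelial and stromal laminins are Lamb1, Lamb2 and Lamc1. Lamb1 was at 1.7, 0.88 and 1.73 FPKM in the controls, 1.07, 0.32 and 1.19 across set A and 1.25, 2.28 and 1.57 across set B. Lamb2 was at 1.2, 1.05 and 0.85 FPKM in the controls, 1.86, 1.32 and 0.703 across set A and 1.87, 2.34 and 1.09 across set B, and had its 2 lowest values of the mutants on day 10. Lamc1 was at 3.27, 3.23 and 2.08 FPKM in the controls, 4.93, 2.32 and 1.92 across set A and 2, 2.96 and 2.13 across set B. For all of these the groups overlapped, with log2 fold changes of −0.13 ± 0.21, 0.28 ± 0.20 and −0.09 ± 0.23 (SE; limma, adjusted p of at least 0.45).

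The α and γ chains of vessels and other stroma were scarce. Lama4, the laminin chain of endothelium and of mesenchyme, was at 0.0714, 0.0831 and 0.0771 FPKM in the controls, 0.0263, 0.018 and 0 across set A and 0.00891, 0.143 and 0 across set B. This is 8, 10 and 9 fragments in the controls, 3, 2 and 0 across set A and 1, 17 and 0 across set B, so 5 of 6 mutants lay below all controls and the day 9 library of set B above them. Lamc3 was at 0.0819, 0.0939 and 0.0544 FPKM in the controls, 0.118, 0.0761 and 0.0534 across set A and 0.0944, 0.0834 and 0.03999 across set B. Lama2, the chain of muscle and nerve, was at 0.00547, 0 and 0 FPKM in the controls, 0 across set A and 0 across set B, and Lama1 was at 0 in all libraries.

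**Figure D3:**
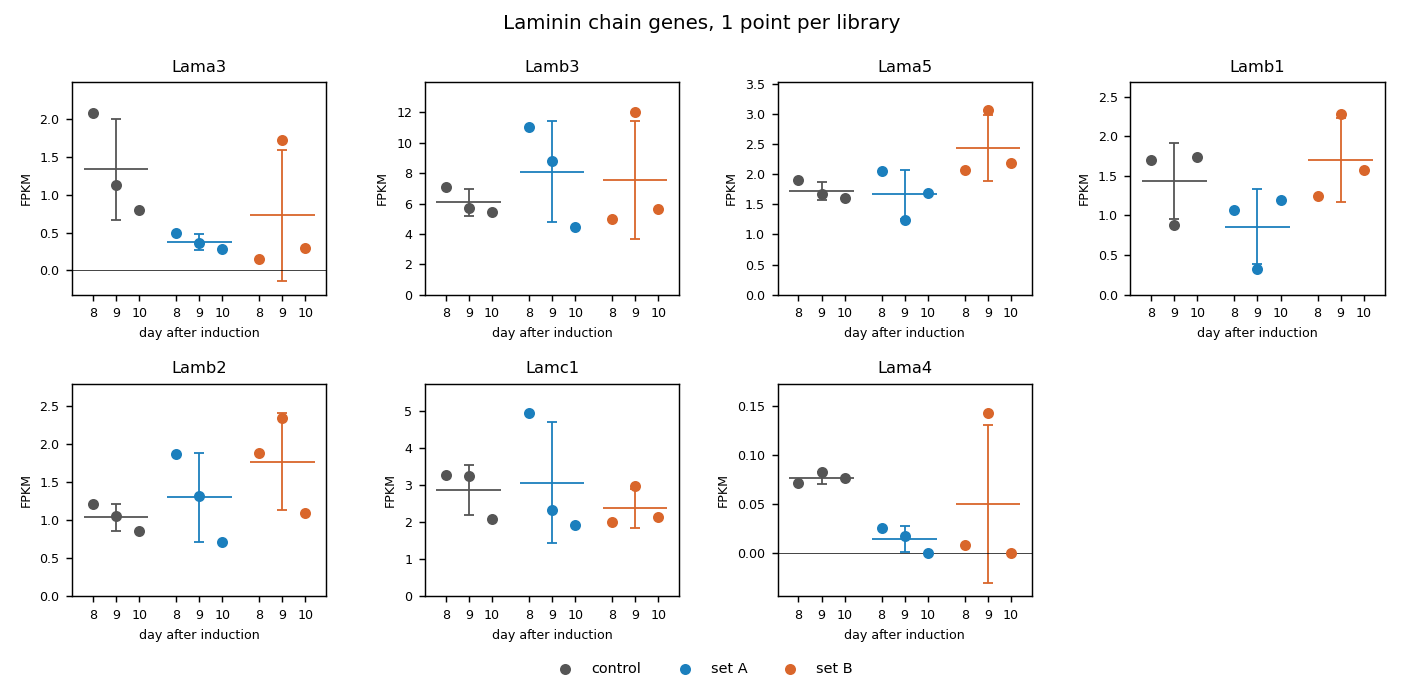
FPKM of 7 laminin chain genes in each library (y axis, linear) by group and day after induction (x axis). Points are libraries, lines are group means and bars are 1 SD (n = 3). Lama3 lies at 0.156 to 0.489 in 5 mutants and 1.73 in the day 9 library of set B.

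At the filter of 1 FPKM in 3 libraries, 11 members were measured: 7 laminins, Dcn, Fn1, Sparc and Vim. None passed in mutants against control, where 1.16% of the 12097 genes tested did (140), and 2 of the 11, Dcn among them, had an unadjusted p under 0.05 by limma, against 2537 genes in all. For set A against control 0 of 11 members passed and 0.215% of all genes did, and for set B 0 of 11 and 0.628%. At an unadjusted p under 0.05 by limma there were 2 members in set A, Dcn among them, and 1 in set B, beside 16.7% and 16.5% of all genes. Set B against set A gave 0 of 11 members and 0% of genes, with 1 member (Lama5) and 3.11% of genes at an unadjusted p under 0.05 by limma. No second tool was run, because the values are not counts. Dcn, Fn1 and Sparc stayed below 1 FPKM in the controls and entered the test only through mutant libraries, which favours a positive sign.

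With the lower level filter 23 members were measured, 12 of them collagens. None passed in mutants against control, where 0.826% of 15498 genes did (128), nor in set A (0.181%), set B (0.452%) or set B against set A (0.00645%). At an unadjusted p under 0.05 by limma there were 10, 6, 4 and 2 members, beside 19.3%, 15.2%, 15.5% and 3.3% of all genes. Dcn, Col3a1, Col1a1, Col1a2, Col6a1 and Col6a2 had control means below 0.1 FPKM and passed the filter only through the mutants, so their positive signs are favoured by it and their fold changes are given as a description. Dcn had the largest log2 fold change in mutants against control, 2.99 ± 0.82 (SE; limma, adjusted p = 0.115). Col3a1 was at 2.21 ± 0.86, Col1a2 at 2.14 ± 0.85 and Col1a1 at 1.91 ± 0.75 (SE; limma, adjusted p = 0.217, 0.227 and 0.215). For Col6a2 and Col6a1 it was 1.57 ± 0.71 and 1.46 ± 0.75 (SE; limma, adjusted p = 0.276 and 0.328), and for Col9a3 1.09 ± 0.30 (SE; limma, adjusted p = 0.113). Without the day 9 library of set B, Col3a1 was at 1.71 ± 0.67 and Dcn at 2.53 ± 0.66 (SE; limma, adjusted p = 0.164 and 0.0649).

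**Figure D4:**
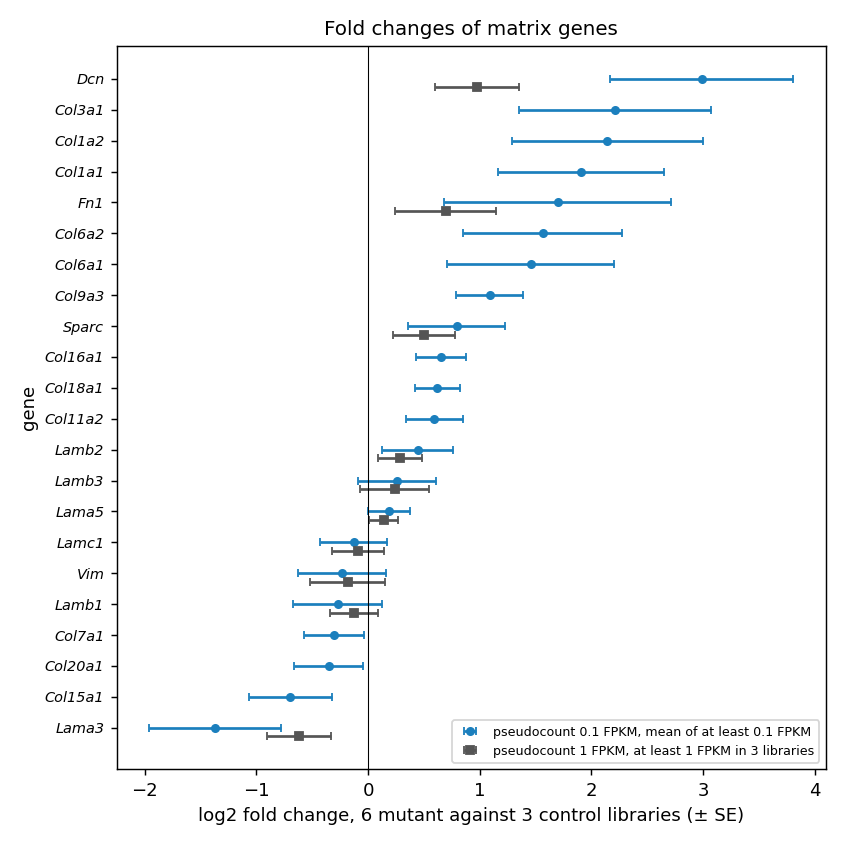
Log2 fold change of 6 mutant against 3 control libraries (x axis) for matrix genes with a test (y axis), with bars of 1 SE. Blue circles are 22 genes with a mean of at least 0.1 FPKM (pseudocount 0.1 FPKM) and grey squares 10 genes with at least 1 FPKM in 3 libraries (pseudocount 1 FPKM). Dcn is the highest at 2.99 and Lama3 the lowest at −1.37.

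The days of the mutants were compared by an F test over both sets. No member passed at the 1 FPKM filter, and 0% of all genes did, but 5 of 11 members (Sparc, Fn1, Dcn, Lamb2 and Vim) had an unadjusted p under 0.05 by limma, against 1897 genes in all. The smallest was that of Sparc (limma, unadjusted p = 0.000406, adjusted p = 0.116). At the lower filter the F test also passed for no member and for 0.0258% of genes. There 10 of 23 members had an unadjusted p under 0.05 by limma, namely Col1a1, Col1a2, Col3a1, Col6a1, Col6a2 and Dcn, with Fn1, Lamb2, Sparc and Vim, against 2371 of 15498 genes. For Col1a1 the unadjusted p = 0.000299 (limma, adjusted p = 0.119) and for Col3a1 the unadjusted p = 0.000952 (limma, adjusted p = 0.14). Without the day 9 library of set B these were 0.00259 and 0.00967 (limma, adjusted p = 0.3 and 0.366), Fn1 and Vim no longer had an unadjusted p under 0.05, and Lamb1 did (limma, unadjusted p = 0.0282). Dcn, Fn1 and Sparc passed the 1 FPKM filter only through mutants of days 8 and 9. The same holds at the lower filter for Col1a1, Col1a2, Col3a1, Col6a1, Col6a2 and Dcn. The filters thus favour a day difference in these genes, and their unadjusted p-values are given as a description. Each day had 1 library of each set, and the mutants of day 8, 9 and 10 are different libraries rather than a series from 1 source.

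Summed by library, the 11 fibrillar collagens were used as a gauge of stromal RNA. The sum was 0.320, 0.557 and 0.285 FPKM in the controls, 3.10, 4.86 and 0.734 across set A and 1.44, 5.42 and 0.544 across set B. The 2 mutants of day 9 and the day 8 mutant of set A were the highest, and the day 10 mutant of set B lay just below the day 9 control. Col11a2 was 66.1% to 80.5% of the sum in the controls. Without it the sum was 0.0978, 0.189 and 0.0554 FPKM in the controls, 2.51, 4.41 and 0.329 across set A and 0.832, 4.96 and 0.257 across set B, so that all 6 mutants exceeded all 3 controls. Col11a2 was left out after the values were seen, and the sum of all 11 genes overlapped.

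The 11 laminins were counted the same way. Their sum was 22.3, 16.9 and 15.9 FPKM in the controls, 27.3, 19.8 and 14.9 across set A and 17.7, 29.8 and 18.2 across set B. It exceeded that of the fibrillar collagens in each library, and its highest value was a smaller multiple of its lowest. Fibrillar collagens were 1.01% to 2.03% of the summed FPKM of the 62 members in the controls and 2.03% to 11.9% in the mutants. Laminins were 59.3% to 70.2% in the controls and 48.2% to 68.3% in the mutants.

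Markers of other cells were measured beside this gauge. Among 11 further fibroblast genes, whose sum was 9.04 to 12.7 FPKM in the controls and 18.6 to 27.6 in the mutants, 1 was abundant enough to test. That gene made up 74.5% to 96.6% of the sum, and without it the list summed to 2.27, 2.31 and 1.51 FPKM in the controls, 2.33, 2.84 and 0.896 across set A and 1.63, 2.57 and 0.953 across set B. The gene, Gsn (gelsolin, an actin-severing protein of many cell types), rose by 1.062 ± 0.19 on the log2 scale (SE; limma, adjusted p = 0.0474), and all mutants exceeded all controls. It was called in 1 of 9 fits that each left out 1 library (limma, adjusted p 0.0273 to 0.161). Its levels of 10.4, 6.73 and 10.4 FPKM in the controls, 18.3, 15.7 and 24 across set A and 18.3, 18.7 and 26.6 across set B did not drop on day 10, unlike those of the fibrillar collagens. Clec3b of that list was at 0.128, 0.0602 and 0.124 FPKM in the controls. Across set A it was at 0.759, 0.515 and 0.136, and across set B at 0.256, 0.67 and 0.136. All its mutants exceeded all controls, and those of day 10 were the lowest of the mutants. Thy1, Ackr4 and Pdgfrb, each above Clec3b in the controls, overlapped between mutants and controls. Fbln5 and Twist2 stayed below 0.05 FPKM in all libraries.

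The 5 red blood cell genes summed to 5.46, 7.04 and 3.89 FPKM in the controls, 39.6, 22.8 and 6.97 across set A and 4.49, 12.99 and 1.57 across set B, and the 4 mesothelial genes to 1.61, 0.733 and 0.996 FPKM in the controls, 3.87, 3.87 and 2.58 across set A and 3.25, 2.01 and 2.23 across set B. Upk1b was the largest part of the mesothelial sum in every library, at 0.651 to 1.29 FPKM in the controls and 1.005 to 2.47 in the mutants. Its day 10 mutants were at 2.36 and 2.14. Msln, Upk3b and Lrrn4 of that list were instead lowest on day 10 in each mutant set. For example, Msln was at 0.112, 0.0261 and 0.0269 FPKM in the controls. Across set A it was at 0.88, 0.449 and 0.118, and across set B at 0.334, 0.238 and 0.0295. The 10 endothelial genes summed to 2.77, 2.72 and 2.58 FPKM in the controls, 4.43, 3.64 and 2.81 across set A and 3.77, 5.79 and 3.1 across set B, with Kdr, Emcn, Cldn5 and Flt1 below 0.05 FPKM in all libraries. Esam, a junction protein, made up 71.2% to 88.9% of the endothelial sum, and without it the sum was 0.401 to 0.798 FPKM in the controls and 0.345 to 1.01 in the mutants. The red blood cell sum was highest in set A on days 8 and 9 and in set B on day 9, 3 libraries that were also the highest for the fibrillar collagens. In the day 8 mutant of set B, however, it lay within the control range, whereas the fibrillar sum lay above it. Their part in the matrix values was not tested. Smooth muscle genes (7) summed to 3.74 to 4.81 FPKM in the controls and 3.83 to 6.61 in the mutants. Most of that sum was Tagln, at 3.42 to 4.41 FPKM in the controls and 3.26 to 5.17 in the mutants. Actg2 was at 0, 0 and 0.0439 FPKM in the controls. Across set A it was at 0.314, 0.366 and 0.0483, and across set B at 0.091, 0.13 and 0. Acta2, Myh11, Cnn1 and Synm overlapped between mutants and controls. Des did not, at 0.102 to 0.14 FPKM in the controls and 0.172 to 1.04 in the mutants, highest in the day 10 mutant of set A. Pericyte genes (5) summed to 0.129 to 0.196 and 0.1502 to 0.311, with Cspg4 below 0.05 throughout. Macrophage genes (9) summed to 14.6 to 20.4 and 23.9 to 33.8. Cd14 was the largest part of the macrophage sum in every library, at 9.37 to 14.6 FPKM in the controls and 11.5 to 25.3 in the mutants. Lyz2 of that list was at 0.937 to 1.64 FPKM in the controls and at 1.09 in both mutants of day 10. On days 8 and 9 it was higher, at 4.42 and 6.45 across set A and 2.54 and 6.78 across set B. Cx3cr1 was at 0.508 to 0.704 FPKM in the controls and 0.797 to 1.32 in the mutants, so all mutants exceeded all controls (limma, adjusted p = 0.196). Cd14, Cd68 and Lyz2 each overlapped between mutants and controls. Enteric glia genes (5) summed to 1.29 to 1.46 and 0.947 to 2.24, with Sox10 and Gfap below 0.05. B and plasma cell genes (6) summed to 2.75 to 5.33 and 3.18 to 4.77.

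Genes of the stromal cells that express Pdgfra were also read. Of the Pdgfra-high subepithelial list (8 genes, such as Foxl1, Bmp5 and Wnt5a), the sum was 9.57 to 13.6 FPKM in the controls and 10.5 to 17.1 in the mutants. Bmp7, Sox6 and F3, which other cells also express, made up 88.3% to 94.6% of it. Without those 3 genes the sum was 0.634 to 0.7495 FPKM in the controls and 0.72 to 2.004 in the mutants. Of the Pdgfra-low crypt base list (5 genes), it was 0.464 to 0.552 and 0.4995 to 1.195, and its defining genes Grem1 and Rspo3 stayed below 0.05 FPKM in all libraries. Rspo1 was at 0 in the controls, 0.126, 0.16 and 0 across set A and 0.0318, 0.121 and 0 across set B. Cd34 was at 0 to 0.0859 FPKM in the controls. It was at 0.0453, 0.475 and 0.0244 across set A and 0.129, 0.398 and 0 across set B. Wnt2b overlapped, at 0.432 to 0.475 FPKM in the controls and 0.475 to 0.741 in the mutants.

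**Figure D5:**
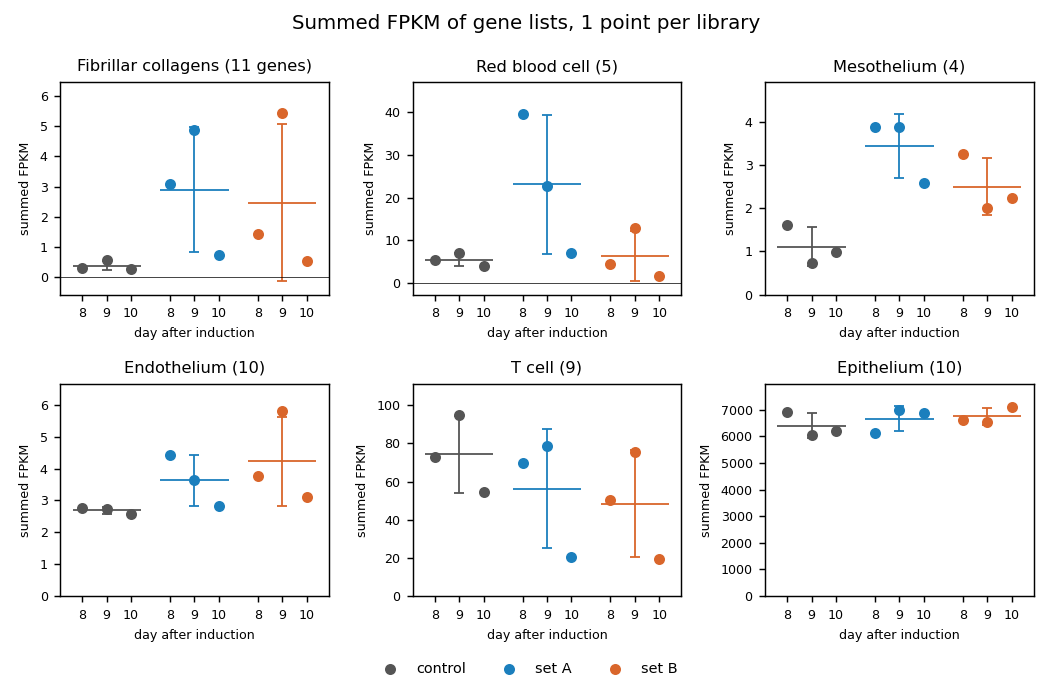
Summed FPKM of 6 gene lists in each library (y axis, linear) by group and day after induction (x axis). Points are libraries, lines are group means and bars are 1 SD (n = 3). The fibrillar collagens reach 5.42 in the day 9 library of set B, while the epithelial genes stay between 6060 and 7102 in all libraries.

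Genes that act on the matrix were read from 5 lists. Of 27 collagen-modifying and cross-linking enzymes, 10 were tested and 0 passed in mutants against control, 7 with a positive log2 fold change (median 0.191, against −0.002 over all genes). The most abundant, P4hb, a subunit of prolyl hydroxylase, was at 730, 530 and 609 FPKM in the controls, 618, 714 and 768 across set A and 696, 657 and 784 across set B, and Ppib and Tgm2 followed, with log2 fold changes of 0.19 ± 0.10 and 0.56 ± 0.28 (SE; limma, adjusted p = 0.302 and 0.289). Serpinh1, the collagen chaperone of the secretory pathway, was too low to test and followed the fibrillar collagens by library, at 0.0513, 0.216 and 0.0247 FPKM in the controls, 0.556, 0.981 and 0.163 across set A and 0.461, 0.826 and 0.0543 across set B. In the enzyme list, all mutants exceeded all controls for Crtap, Pcolce and Plod3 among the tested genes (limma, adjusted p = 0.0732, 0.121 and 0.125). Of 14 metalloproteinases and inhibitors, 5 were tested and 0 passed, and the most abundant, the Paneth cell enzyme Mmp7, had a log2 fold change of 0.09 ± 0.37 (SE; limma, adjusted p = 0.913). For Mmp14 all mutants exceeded all controls, at 22.2 to 26.2 against 17.7 to 19.7 FPKM. Its log2 fold change was 0.339 ± 0.065 (SE; limma, adjusted p = 0.0528).

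Receptors and the remaining matrix genes gave similar counts. Of 17 integrins and other matrix receptors 15 were tested and 0 passed, with Dag1, Sdc4 and Itga3 the most abundant and 11 of 15 log2 fold changes positive. For Ddr1 and Sdc1 all mutants exceeded all controls. Their log2 fold changes were 0.516 ± 0.099 and 0.226 ± 0.072 (SE; limma, adjusted p = 0.05285 and 0.138). Of 10 other basement membrane genes 6 were tested, 0 rose and 1 fell. That 1 was Nid2, the second nidogen, at 4.41, 4.2 and 3.92 FPKM in the controls, 1.84, 2.4 and 1.98 across set A and 2.08, 2.42 and 2.15 across set B, and all mutants lay below all controls. Its log2 fold change was −0.72 ± 0.08 (SE; limma, adjusted p = 0.0122), with −0.76 across set A and −0.69 across set B (limma, adjusted p = 0.032 and 0.025). It was called in 6 of 9 fits that each left out 1 library (limma, adjusted p 0.008 to 0.0764). Of 13 other stromal matrix genes 3 were tested and 0 passed. Among them Fstl1, a secreted glycoprotein of mesenchyme, was at 0.214, 0.128 and 0.265 FPKM in the controls, 1.14, 1.22 and 0.0973 across set A and 0.931, 8.24 and 0.275 across set B, with its highest value in the day 9 library of set B.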

How the data were processed

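Poly(A) RNA of mouse crypt epithelium was sequenced as paired-end reads in 9 libraries, per the labels' protocols. The values deposited by the authors are FPKM, a unit inferred from the numbers (24930 symbols), as no header names it. Kallisto 0.46.1, DESeq2 1.40.1 and mm9 appear in the submitters' processing notes with no role, and filters are not given in the sources read. Samples were grouped by title. The members and gene lists were chosen with earlier results of these data known.

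The design had foreseen counts or normalized values. Since the file held FPKM, limma 3.58.1 in R 4.3.3 was fitted to log2(FPKM + 1) for the 12097 genes that reached 1 FPKM in 3 or more libraries, with group means over all 9 libraries, trend and robust options, and Benjamini-Hochberg adjustment over all genes tested (threshold 0.05). The F test of days added day terms to the mutants. A pseudocount understates the change of low genes. A lower filter (mean of at least 0.1 FPKM, pseudocount 0.1) served the low members. Alternatives were another pseudocount, no filter, a filter of 5 FPKM, equal totals, the day as a block, and leaving out each library. The named members are Col3a1, the 7 single genes, the 3 highest of each role group and any that passed. Others were chosen after their values were seen, such as Col1a1, Col5a1, Col14a1, Col27a1, Lama3, Serpinh1 and Nid2. Nid2 and Gsn passed, and so also fell under the rule for lists. Code was tested on simulated data. The values of 1 member are not reported here.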

Additional observations from a re-analysis of the deposited data

Results flagged for a closer look

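Values far from the other mutants were looked for among the 6 mutant libraries of both sets together, in the 39 members that were named by rule or tested at the lower filter. In 4 members a library's gap to its nearest neighbour, as a share of the range, exceeded Dixon's critical value for 6 values, which chance gives in about 1 of 20. Of the 4, 3 concerned the day 9 library of set B: Lama3 at 1.73 FPKM with the next mutant at 0.489, Col15a1 at 0.259 with the next at 0.08, and Lama4 at 0.143 with the next at 0.0264. The fourth was Lamc1, at 4.93 FPKM in the day 8 library of set A with the next mutant at 2.96. The day 9 library of set B is also the only one with the male pattern of Xist and Y-linked RNA, and the part of sex in these values was not tested.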

How the results depend on the processing

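In mutants against control, set A against control, set B against control and set B against set A, 0 members passed under every alternative named in the methods, and 0 to 0 when 1 library was left out. The members tested ranged from 3 (at least 5 FPKM) to 59 (no filter). In the comparison of days, 1 member (Sparc, with 60 genes in all) passed after rescaling to equal totals, and leaving out 1 library gave 0 to 1 members, the 1 being Vim without the day 8 library of set B (41 genes in all). The cause was not tested. At the lower filter without the day 9 library of set B, an alternative added after the data were seen, 1 member passed in mutants against control (Lama3, −1.79) and 2 in set B against control (Lama3 and Col18a1). At the 1 FPKM filter without that library Lama3 no longer reached 1 FPKM in 3 libraries and was not tested. Lamc1, at −0.09 on the log2 scale, ran from −0.245 to 0.01 when 1 library was left out, positive without the day 10 library of set A.

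The count of genes called in mutants against control was 140 in the fit reported, 80 with no filter, and 17 to 995 when 1 library was left out, the last without the day 9 library of set B. For set A it was 26, and 3 to 126, and for set B 76, and 18 to 483, the highest again without that library. With the day as a replicate block, 0 members and 97, 16, 63 and 0 genes passed in the 4 comparisons. The correlation of the deviations of 9 same-day pairs ran from −0.236 to 0.615. Of these, 2 were over 0.1, both between the mutant sets (0.398 on day 9 and 0.615 on day 10), and no pair with a control was. The numbers were therefore not taken to pair the mutants with the controls. For set B against set A a pairing by day was not excluded, and the block fit called 0 members and 0 genes there. Members resting on a few fragments, such as Lum, Col5a1 and Lama4, cannot show modest differences at this depth.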
